A study of Mus musculus with 6 samples.

Results

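Fatty acid synthesis in the left ventricle was followed through 10 genes of 18193 named on the array. They are the enzymes Acly, Acaca, Acacb, Fasn, Elovl6, Scd1 and Scd2, the lipogenic protein Thrsp, and the transcription factors Mlxipl (ChREBP) and Srebf1 (SREBP1). The genes were chosen by their names as a pathway, with earlier results of these arrays known, and every probe set annotated to 1 of these symbols alone was taken. This gave 24 probe sets of 34945, of which 19 passed a filter on low signal and 5 did not, and each of the 10 genes kept at least 1 probe set. Because the members were selected on this same contrast, their fold changes and adjusted p-values below are a description of these arrays and support nothing beyond them.

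Hearts came from 3 Glut1-TG mice, which carry human Glut1, a glucose transporter that does not need insulin, under the alpha-myosin heavy chain promoter and so mainly in cardiomyocytes, and from 3 WT mice. All were male, of the FVB strain, and 11 to 12 weeks old per the labels, with no other allele or treatment given for either group. Each left ventricle was hybridised to 1 Affymetrix mouse expression array, and each probe set has 1 signal per array, a fluorescence intensity on a linear scale. The labels do not say whether the mice were littermates. The limma p-values set the difference between groups against the spread among hearts within a group, moderated over all genes. Having 3 arrays in each group limits the precision.

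De novo fatty acid synthesis starts from citrate that leaves the mitochondrion. ATP citrate lyase (Acly) splits it into acetyl-CoA, acetyl-CoA carboxylase makes malonyl-CoA, and fatty acid synthase (Fasn) joins these units into palmitate, which Elovl6 elongates and the Scd enzymes desaturate. In liver, ChREBP responds to glucose metabolites and SREBP1 to insulin and sterol state, and both act on the genes of these enzymes. The heart makes little fatty acid for storage, and malonyl-CoA there is known mainly as the inhibitor of carnitine palmitoyltransferase 1, the gate of mitochondrial fatty acid import.

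The array scale was the same in all hearts, with a trimmed mean of 500 in each array, and the median signal was 181.1 to 213 in Glut1-TG and 170.7 to 187.2 in WT hearts. The mouse probe sets of Slc2a1 (Glut1) do not check the human transgene, and they ran in different directions: 1434773_a_at fell by 2.30 on the log2 scale (adjusted p = 0.0226, limma), 1426600_at stood at 0.69 on that scale without passing (adjusted p = 0.135), and 1426599_a_at at -1.19 (adjusted p = 0.174). All 14 cardiomyocyte markers were well measured, with summed signals of 527305 to 559195 in Glut1-TG and 562026 to 688747 in WT hearts, and each had a negative log2 fold change (median -0.19), none past limma after adjustment and 4 of them before it (unadjusted p under 0.05). Of 6 atrial markers, Myl7 (log2 fold change 3.76) and Myl4 (1.75) rose in Glut1-TG hearts, while Nppa (-0.07), Nr2f2 (-0.03) and Bmp10 (-0.61) did not pass and Sln, under the filter, lay lower in every Glut1-TG heart (-1.13). The median of the 5 atrial markers tested was -0.03, and Myl7 lost the call without WT replicate 1 (adjusted p = 0.137) or WT replicate 3 (0.0911). In WT hearts Myl7 read 26.5, 90.5 and 14.2, all under the filter's signal of 115. It passed the filter only through its Glut1-TG signals of 377.7, 712.8 and 314.9, so the size of its change rests on low WT signals. Among 9 endothelial, 9 fibroblast, 7 macrophage and 4 Schwann cell markers tested, limma called 0, with 1 endothelial gene lower and 1 fibroblast gene higher before adjustment, and the summed Schwann cell markers were 3783 to 4115 in Glut1-TG and 3401 to 3596 in WT hearts. The part of these markers in the results below was not tested. In whole ventricle, fewer cells of a type and less RNA per cell cannot be told apart.

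At the level of 1 probe set per gene, Acaca, Acly and Thrsp rose in Glut1-TG hearts, 0 of the 10 genes fell (0 also at an unadjusted p under 0.05), and 7 did not pass limma at an adjusted p of 0.05. Over all 13178 genes tested, 0.258% were called higher and 0.599% lower. At an unadjusted limma p under 0.05, 721 of the 13178 were higher and 765 lower. Nothing is read from the members' count because the choice of members used this contrast. In 5 genes (Acaca, Acly, Thrsp, Mlxipl and Acacb) every Glut1-TG heart lay above every WT heart, in 0 genes below, against 8.67% of all genes that lay above. Of all 13178 genes, 1156 lay below. The median log2 fold change of the 10 genes was 0.19, and that of all genes tested was 0.02. The plot of signal in each ventricle shows the split between these 5 genes and the other 5, Fasn, Scd1, Scd2, Elovl6 and Srebf1, whose groups overlapped.

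**Figure D1:**
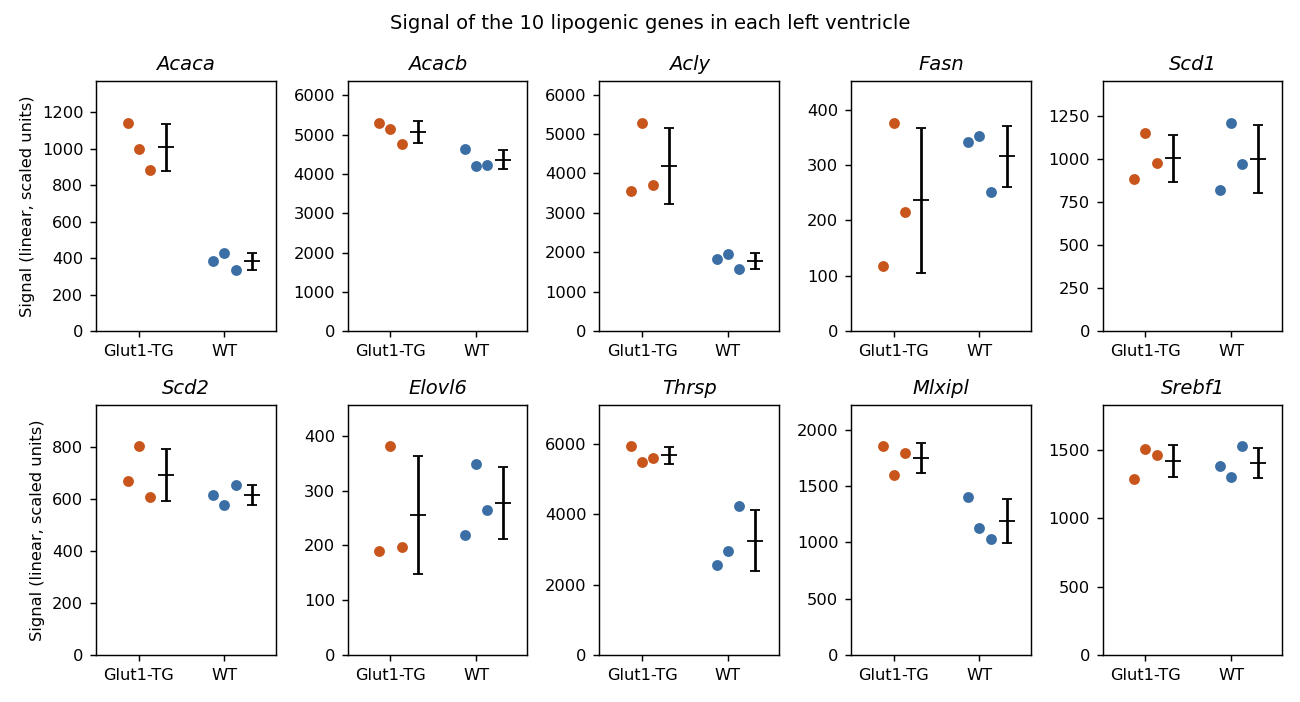
Signal (linear, scaled units) of the probe set that represents each of the 10 genes, with 1 point per left ventricle for 3 Glut1-TG and 3 WT hearts and the mean with SD beside them. Acaca lay at 883 to 1141.9 in Glut1-TG and 333.6 to 429.1 in WT hearts, while the Scd1 and Srebf1 points of the groups are interleaved.

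The start-site sequences of the genes that rose are shown because Acly and Thrsp are known in liver as targets of both lipogenic factors, together with the upstream start of Mlxipl, the factor itself. RefSeq entries of build GRCm38.p6 covered 8 of the 10 genes with 11 start sites. The start listed for Acaca lies 65803 bases inside the gene, so its sequence is not shown. That of Acacb lies 19197 bases inside its gene. Each window holds the 250 bases before the start, 5′ to 3′ on the gene's strand, with motif matches in capitals: the CCAAT box (CCAAT, or ATTGG where it runs on the other strand), the GC box (GGGCGG, or CCGCCC on the other strand) and the E-box (CACGTG).
Acly, chr11:100528001-100528250, minus strand: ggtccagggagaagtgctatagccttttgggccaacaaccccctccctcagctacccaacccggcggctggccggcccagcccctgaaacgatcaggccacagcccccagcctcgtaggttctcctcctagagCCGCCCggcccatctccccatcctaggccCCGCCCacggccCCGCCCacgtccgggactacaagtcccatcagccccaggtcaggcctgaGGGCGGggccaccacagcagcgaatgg
Thrsp, chr7:97417551-97417800, minus strand: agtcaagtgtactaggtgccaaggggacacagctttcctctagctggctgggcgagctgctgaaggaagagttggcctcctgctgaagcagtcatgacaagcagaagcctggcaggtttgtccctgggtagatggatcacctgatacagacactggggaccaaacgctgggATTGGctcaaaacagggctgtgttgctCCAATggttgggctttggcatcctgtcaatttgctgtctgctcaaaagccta
Mlxipl, chr5:135089640-135089889, plus strand: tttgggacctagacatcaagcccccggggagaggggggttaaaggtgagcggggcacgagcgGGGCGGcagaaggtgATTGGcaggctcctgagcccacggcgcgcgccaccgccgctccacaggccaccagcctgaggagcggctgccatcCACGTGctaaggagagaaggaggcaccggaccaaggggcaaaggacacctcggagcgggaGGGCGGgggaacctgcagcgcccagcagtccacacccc

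Acly held 4 matches of the GC box (GGGCGG on either strand), Thrsp 2 of the CCAAT box, and Mlxipl 1 E-box, the palindrome CACGTG that is the core of a ChREBP site, 98 bases before the start, with 1 CCAAT box and 2 GC boxes. Of all 32851 promoters of this length, 6.02% held the E-box, 33.8% a CCAAT box, 32.7% a GC box, 12.4% the letters TATAAA and 1.05% the SREBP element TCACNCCAC, each searched on both strands with overlaps allowed. Of the 8 genes matched, 1 held the E-box, 5 a CCAAT box, 3 a GC box, 1 TATAAA and 1 the SREBP element. The SREBP element lies at the downstream one of the 2 Mlxipl starts, which held no E-box. The TATAAA match was in Acacb, which also held a CCAAT box, and the windows of Acacb and Acaca lie inside the genes. So do those of Fasn (start 619 bases inside), Srebf1 (1605, 3559 and 13715) and the downstream Mlxipl start (17001). These counts are per gene, with up to 3 start sites (Srebf1), while the shares above are per promoter. Fasn, whose groups overlapped, held 3 CCAAT matches, 2 of which overlap each other. A match is a description of letters and says nothing of binding in these hearts.

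Acaca encodes acetyl-CoA carboxylase 1, the cytosolic enzyme that makes malonyl-CoA for chain building (RefSeq, GRCm38.p6, chromosome 11, bases 84129635 to 84401651). Its brighter probe set, 1434185_at, gave signals of 1141.9, 996.9 and 883 in Glut1-TG hearts and 384.3, 429.1 and 333.6 in WT hearts. The lowest Glut1-TG heart was well above the highest WT heart. The means were 1007 ± 130 in Glut1-TG and 382 ± 47.8 in WT hearts (SD, n = 3 each), a 2.63-fold rise (95% interval 2.04 to 3.40; log2 fold change 1.40, SE 0.16, adjusted p = 0.00556 by limma), which placed Acaca at position 47 from the top among all genes tested when ordered by log2 fold change. The other probe set, 1427595_at, was dimmer and gave 238.1, 263.2 and 157 in Glut1-TG hearts and 165.8, 118.8 and 127.4 in WT hearts. Its groups overlapped, because the lowest Glut1-TG value lay under the highest WT value, and the difference of 0.66 on the log2 scale did not pass (adjusted p = 0.554 over all probe sets tested). Averaged over both probe sets, Acaca stood at 1.03 on the log2 scale and did not pass (adjusted p = 0.0742).

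Acacb encodes acetyl-CoA carboxylase 2, the form bound to the mitochondrial surface, whose malonyl-CoA is known for restraining fatty acid import (chromosome 5, bases 114146321 to 114250761). Probe set 1427052_at read 5302.1, 5143.6 and 4759.7 in Glut1-TG hearts and 4641.6, 4199.4 and 4238.3 in WT hearts. The groups did not overlap but lay close together. The log2 fold change was 0.22 (SE 0.08, 95% interval 0.03 to 0.41), a 1.16-fold difference that did not pass (adjusted p = 0.378). The second probe set, 1445754_at, was under the filter, at 153.8, 21.3 and 117.8 in Glut1-TG hearts and 35.2, 38.6 and 20.9 in WT hearts. The groups overlapped, and in the fit without a filter it did not pass (adjusted p = 0.723).

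Acly encodes ATP citrate lyase (chromosome 11, bases 100476352 to 100528000). Probe set 1451666_at read 3562.7, 5284.9 and 3715.2 in Glut1-TG hearts and 1827.1, 1967 and 1567.9 in WT hearts. All 3 Glut1-TG hearts were above all 3 WT hearts, and Glut1-TG replicate 2 was the highest. The rise was 2.32-fold (95% interval 1.83 to 2.94; log2 fold change 1.21, SE 0.15, adjusted p = 0.00655 by limma), at position 85 from the top. Of 6 Acly probe sets, 1439459_x_at gave 2092.7, 2664 and 2150.2 in Glut1-TG hearts and 1037.2, 1020.2 and 954.5 in WT hearts (log2 fold change 1.19, adjusted p = 0.00276 over all probe sets). 1425326_at, at 1316.6, 1572.8 and 940.6 in Glut1-TG hearts against 614.3, 430.2 and 630 in WT hearts, had nearly the same log2 fold change of 1.18 with more spread and did not pass (adjusted p = 0.0536). The fourth tested probe set, 1446315_at, did not share the difference: it read 187.1, 176.3 and 161 in Glut1-TG hearts and 127.2, 235.3 and 149.6 in WT hearts (log2 fold change 0.08). The remaining 2, 1438389_x_at and 1439445_x_at, were under the filter and overlapped, at 29.2 to 114.1 and 4.8 to 49.6 in Glut1-TG hearts against 35 to 59.3 and 31.5 to 60.3 in WT hearts.

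Thrsp encodes THRSP (Spot 14), a nuclear and cytosolic protein known in liver and mammary gland to accompany lipogenesis (chromosome 7, bases 97412933 to 97417550). Probe set 1424737_at read 5937.4, 5489 and 5612.5 in Glut1-TG hearts and 2572.3, 2964.2 and 4236.9 in WT hearts. The Glut1-TG hearts were tightly grouped, and WT replicate 3 lay nearest to them. The means were 5680 ± 232 in Glut1-TG and 3258 ± 870 in WT hearts (SD, n = 3 each), a 1.78-fold rise (log2 fold change 0.83, SE 0.16, 95% interval 0.48 to 1.19, adjusted p = 0.0469 by limma). This call stood at the edge of the threshold. In the fit over all probe sets the adjusted p was 0.0611, and without any 1 array other than WT replicate 3 it was 0.0991 to 0.188; without WT replicate 3 the log2 fold change was 1.04 (adjusted p = 0.00771). Probe set 1422973_a_at had 1799.4, 1561.7 and 1591.4 in Glut1-TG hearts and 791, 1040.7 and 1457.5 in WT hearts, again without overlap (log2 fold change 0.63, adjusted p = 0.29). The groups of 1444166_at overlapped, at 328.2, 240 and 186.6 in Glut1-TG hearts against 212.4, 87.4 and 229.5 in WT hearts (log2 fold change 0.60).

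Fasn encodes the enzyme that builds palmitate (chromosome 11, bases 120805958 to 120825166). Its only probe set, 1423828_at, read 117, 376.6 and 215.4 in Glut1-TG hearts and 342.5, 352.8 and 252.2 in WT hearts. The Glut1-TG hearts spread on both sides of the WT range. The log2 fold change was -0.56 with a wide interval (SE 0.40, 95% interval -1.45 to 0.33, adjusted p = 0.638), so in fold terms anything from 0.365 to 1.26 lay within it. It moved with single arrays, to -0.13 without Glut1-TG replicate 1 and -0.98 without Glut1-TG replicate 2. Whether the change of Fasn differs from those of Acly and Acaca was not tested.

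Elovl6 encodes the elongase that extends palmitate to stearate (chromosome 3, bases 129532386 to 129638495). Of its 3 probe sets only 1417404_at passed the filter, at 190.6, 380.6 and 196.1 in Glut1-TG hearts and 219.1, 349.4 and 264.1 in WT hearts. The groups overlapped, and the log2 fold change was -0.17 (95% interval -0.92 to 0.58, adjusted p = 0.889). The probe sets under the filter, 1442656_at and 1417403_at, gave 65.9 to 132.7 and 16.4 to 39.9 in Glut1-TG hearts and 33.6 to 184.3 and 23.1 to 57.7 in WT hearts. Scd1 and Scd2 encode desaturases that put a double bond into saturated acyl chains, and both lie on chromosome 19, Scd1 at bases 44394450 to 44407709 and Scd2 at bases 44293676 to 44306864. For Scd1, 1415964_at read 882.6, 1153.8 and 979 in Glut1-TG hearts and 821.9, 1212.6 and 973.6 in WT hearts. The groups were interleaved in both Scd1 probe sets, with log2 fold changes of 0.01 (95% interval -0.36 to 0.38, adjusted p = 0.985) and 0.06. For Scd2, 1415822_at read 666.5, 800.9 and 604.8 in Glut1-TG hearts and 615.7, 575.5 and 653.4 in WT hearts, which overlapped (log2 fold change 0.16, 95% interval -0.18 to 0.50, adjusted p = 0.749). The other Scd1 probe set, 1415965_at, gave 136.9 to 219.5 in Glut1-TG and 125.7 to 197 in WT hearts. The other 2 Scd2 probe sets, 1415823_at and 1415824_at, gave 370.8 to 529.5 and 183.7 to 308.9 in Glut1-TG hearts and 343.9 to 417.1 and 112 to 210.3 in WT hearts, with log2 fold changes of 0.20 and 0.58 and no call.

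Mlxipl encodes ChREBP, the glucose-responsive factor whose liver targets include lipogenic genes (chromosome 5, bases 135089890 to 135139768). Probe set 1419185_a_at read 1850.9, 1596.8 and 1791 in Glut1-TG hearts and 1403.9, 1130 and 1028.5 in WT hearts. Every Glut1-TG heart was above every WT heart, with means of 1746 ± 133 in Glut1-TG and 1187 ± 194 in WT hearts (SD, n = 3 each). The log2 fold change was 0.57 (SE 0.13, 95% interval 0.27 to 0.86), a 1.48-fold difference that did not pass (adjusted p = 0.117 by limma). With the limits on fold change and unadjusted p that the study used, Acaca, Acly, Thrsp and Mlxipl passed among the 10 genes, where 3.21% of all genes tested passed as higher. Srebf1 encodes SREBP1, the membrane-bound factor released by proteolysis (chromosome 11, bases 60199084 to 60224186). Probe set 1426690_a_at read 1288.6, 1508.2 and 1461.4 in Glut1-TG hearts and 1387.7, 1305.2 and 1527.7 in WT hearts. The groups were interleaved, and the log2 fold change was 0.01 (95% interval -0.24 to 0.26, adjusted p = 0.981).

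**Figure D2:**
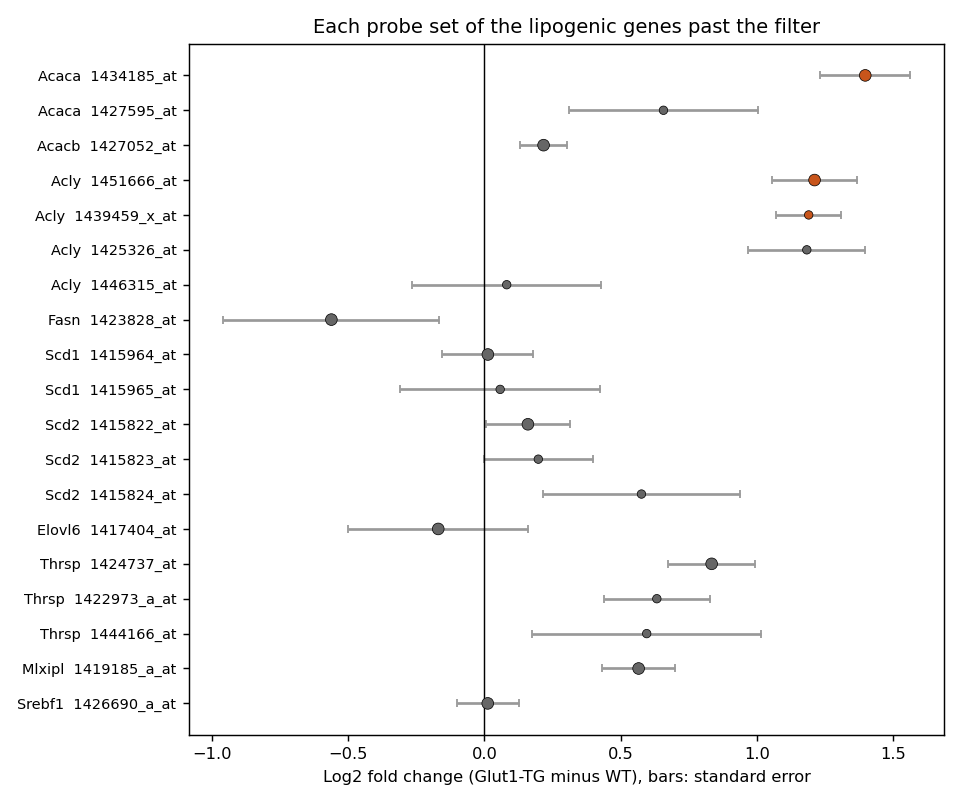
Log2 fold change (Glut1-TG minus WT) of the 19 probe sets past the filter, with bars of 1 standard error; larger points stand for the gene and coloured points passed limma over all probe sets. Acaca 1434185_at (1.40) and the Acly probe sets 1451666_at (1.21) and 1439459_x_at (1.19) are the coloured ones.

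Over probe sets, 3 of the 19 past the filter rose (Acaca 1434185_at, Acly 1451666_at and Acly 1439459_x_at), 0 fell and 16 did not pass, beside 0.137% called higher of 22551 probe sets tested. In 8 of the 19 every Glut1-TG heart was above every WT heart, beside 7.96% of all probe sets tested, and all 5 probe sets under the filter overlapped. Probe sets of 1 gene did not always move alike: in Acly 3 of 4 tested had log2 fold changes of 1.18 to 1.21, and in Acaca only the brighter one passed. Probe sets whose names end in _x_at can read related transcripts.

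**Figure D3:**
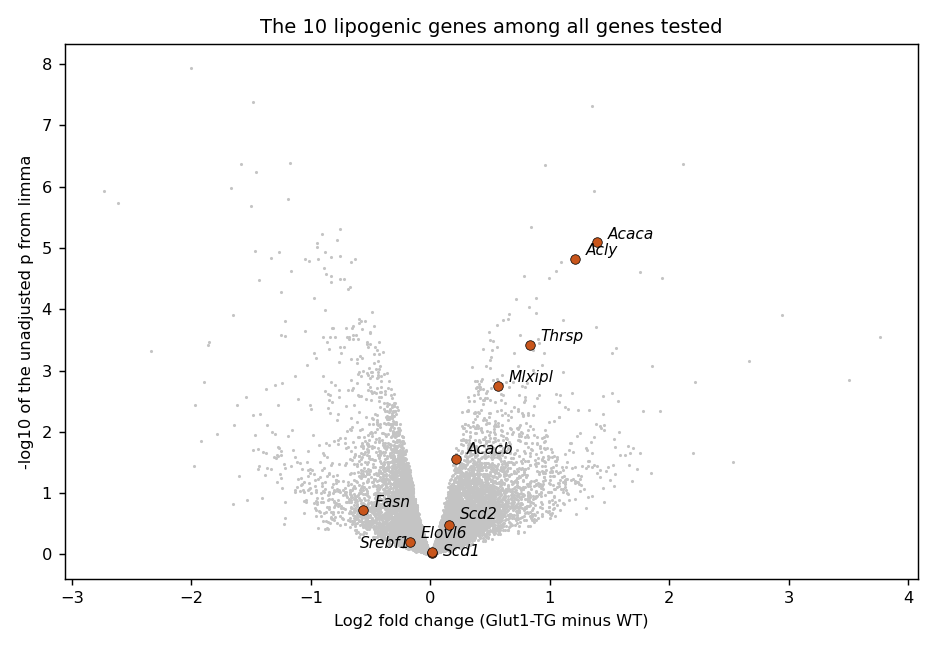
Each of 13178 genes tested, with the log2 fold change (Glut1-TG minus WT) against -log10 of the unadjusted limma p; the 10 lipogenic genes are coloured and named. Acaca and Acly stand among the higher genes at 1.40 and 1.21, and Scd1 and Srebf1 lie at 0.01.

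The list of genes that make or carry acetyl-CoA, citrate and NADPH, in the cytosol or in mitochondria, gave calls in both directions. The 2 that fell, Idh2 and Acss1, encode mitochondrial enzymes. Of 11 genes tested 1 rose and 2 fell (before adjustment 3 were higher and 3 lower), with a median log2 fold change of -0.13. Pgd, a pentose phosphate enzyme that makes NADPH, read 1548.3, 1602.4 and 1452 in Glut1-TG hearts and 995.4, 1121.1 and 1007.1 in WT hearts. These groups did not overlap (log2 fold change 0.56, adjusted p = 0.0485), and the call was lost without any 1 array other than Glut1-TG replicate 1 (adjusted p up to 0.222, without WT replicate 3). Idh2, the mitochondrial NADP isocitrate dehydrogenase, read 19099.9, 18394.9 and 19096 in Glut1-TG hearts and 36142.9, 28408.3 and 29541.3 in WT hearts, and it fell by 0.73 on the log2 scale (adjusted p = 0.00953), although its dimmer probe set had 0.09 and the mean of both gave -0.32 (adjusted p = 0.633).

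Acss1, which makes acetyl-CoA from acetate in mitochondria, fell by 0.59 on the log2 scale (adjusted p = 0.0306), and lost the call without any 1 array (adjusted p 0.0527 to 0.116). Its dimmer tested probe set stood at -0.07, the mean of its probe sets at -0.33 (adjusted p = 0.489), and centring on the cardiomyocyte markers gave -0.40 (adjusted p = 0.132). The citrate carrier Slc25a1, which feeds Acly, had 316.7, 539.9 and 430.9 in Glut1-TG hearts and 284.8, 242.3 and 267.3 in WT hearts. Its groups did not overlap, and the difference of 0.67 on the log2 scale did not pass (adjusted p = 0.354). Malic enzyme Me1 (0.24, adjusted p = 0.432) and cytosolic Acss2 (0.16, adjusted p = 0.636) did not pass either.

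Genes that handle malonyl-CoA and extend chains gave few calls. Of 4 malonyl-CoA genes tested limma passed 0, also before adjustment (median 0.14), and malonyl-CoA decarboxylase Mlycd, which removes the product of Acaca and Acacb, had a log2 fold change of 0.08, with Acsf3 at 0.29 and Cpt1a at 0.20. Of 7 genes of the separate mitochondrial fatty acid synthesis 0 passed (median -0.13; before adjustment 1 higher and 2 lower), with Lipt1 at 0.40 and Lipt2 at 0.37. Among 16 genes of elongation and desaturation, 0 rose (1 before adjustment) and 1 fell (median 0.07). That gene was Cyb5a, cytochrome b5, the electron donor of the Scd enzymes, at 1838.2, 2084.8 and 2224 in Glut1-TG hearts and 3142.9, 3537.8 and 3686.7 in WT hearts. Its groups were far apart (log2 fold change -0.76, adjusted p = 0.00956), and the call was lost without WT replicate 2 (adjusted p = 0.0663) or WT replicate 3 (0.0708), and with arrays centred on the cardiomyocyte markers (log2 fold change -0.56, adjusted p = 0.129). The gene higher before adjustment was the elongase Elovl1, whose brightest probe set had 0.51 without overlap (adjusted p = 0.0601 by limma). Its dimmer tested probe sets had 0.24 and 0.34 with overlap. The elongase Elovl3 had a log2 fold change of 0.72 with overlapping groups (adjusted p = 0.531).

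The partners of ChREBP and SREBP were mostly without a call. Of 12 genes that hold ChREBP partners, the Thrsp paralogue and ChREBP targets, 1 rose (median 0.26), and before adjustment 4 were higher and 0 lower. Over all 13178 genes tested, 721 were higher and 765 lower before adjustment. The gene that rose was Klf10, a transcription factor gene known as a ChREBP target in liver, at 1253.5, 1586.1 and 1763.6 in Glut1-TG hearts and 790.4, 811.3 and 539.3 in WT hearts. Its log2 fold change was 1.11 (adjusted p = 0.0309), and the call was lost without any 1 array other than Glut1-TG replicate 1 (adjusted p 0.0637 to 0.105). The other 3 lay higher in every Glut1-TG heart without passing. Arrdc4, an arrestin family gene, read 453.2, 370 and 386.3 in Glut1-TG hearts and 285.7, 216.2 and 232.1 in WT hearts (log2 fold change 0.73, adjusted p = 0.254), and Gpd1 had 0.35 (adjusted p = 0.435) and Txnip 0.21 (adjusted p = 0.341). Mlx, the dimer partner of ChREBP, lay lower in every Glut1-TG heart without passing (log2 fold change -0.39, adjusted p = 0.481), and its relative Mlxip had 0.01. Mid1ip1, the paralogue of Thrsp, read 4797.8, 8817.6 and 6689.6 in Glut1-TG hearts and 5442, 5503 and 5104.6 in WT hearts, which overlapped (log2 fold change 0.30, adjusted p = 0.576).

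Of 18 genes of SREBP processing and partners 0 passed limma (median 0.03; before adjustment 1 higher). Srebf2, the sterol counterpart of Srebf1, had a log2 fold change of 0.41 without overlap (adjusted p = 0.41), the escort Scap 0.22 and the retention protein Insig1 -0.21. Usf1 had 1.23 in its brightest probe set (adjusted p = 0.48), with overlapping groups, and its dimmer probe sets had -0.64 and -0.77. Among 10 genes of glycerolipid synthesis 0 passed (median 0.05; before adjustment 1 higher and 3 lower), with Gpam, the first acyltransferase, at 0.05, Agpat5 at -0.42 and Dgat2 at -0.39. Among 11 sterol synthesis genes, the targets of SREBP2, 0 passed, also before adjustment, and 9 had negative log2 fold changes (median -0.16), Pmvk having the lowest at -0.33 and Dhcr7 -0.26.

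**Figure D4:**
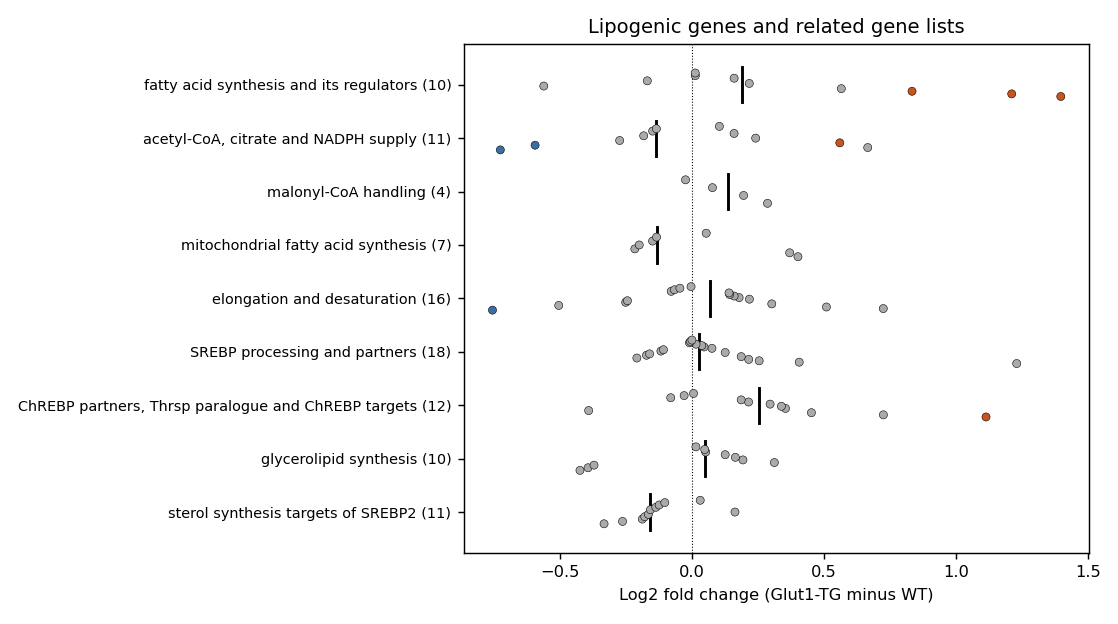
Log2 fold change (Glut1-TG minus WT) of every tested gene of the lipogenic set and of 8 related lists, with the number tested in brackets; bars are medians, orange points rose and blue points fell in limma. The lipogenic set has a median of 0.19, against -0.16 for sterol synthesis genes.

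Lipogenic enzymes are abundant in fat, so adipocyte markers were read in the same hearts. Of 8 adipocyte markers on the array, Adipoq, Lep and Cidec were under the filter, and Adipoq read 29.3, 138.6 and 8.3 in Glut1-TG hearts and 94.5, 107.3 and 35.3 in WT hearts. The summed signal was 31781 to 39540 in Glut1-TG and 33557 to 35629 in WT hearts. Most of it was Fabp4 (means 33714 in Glut1-TG and 32358 in WT), so the sum was not read as an amount of fat. Of 5 adipocyte markers tested 0 passed limma, 0 also before adjustment. Of 7 brown adipocyte markers Ucp1 was under the filter. The sum was 61777 to 68247 in Glut1-TG and 69014 to 79538 in WT hearts. Most of it was Cox8b (means 27779 in Glut1-TG and 34174 in WT) and Cox7a1 (28777 and 32538). The sum was therefore not read as an amount of brown fat. Cidea rose by 0.65 on the log2 scale (adjusted p = 0.0306 by limma). It read 1448.5, 1625.2 and 1626.9 in Glut1-TG hearts and 966.4, 1064.5 and 957.2 in WT hearts. The Cidea call was lost without any 1 array other than Glut1-TG replicate 1 (adjusted p 0.0914 to 0.145). Before adjustment 1 brown adipocyte marker was higher, Cidea, and 1 lower, Cox8b, which lay under WT in every Glut1-TG heart (-0.30, adjusted p = 0.281), with Cox7a1 at -0.18, Ppargc1a at -0.24, Dio2 at 0.05 and Elovl3 at 0.72 on the log2 scale. Of 4 hepatocyte markers 3 were under the filter and the other had -0.12 on the log2 scale. The part of Cidea and of the fat markers in the lipogenic values was not tested.

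The genes whose profile over the 6 arrays was most like that of Acaca, by the root-mean-square difference of centred log2 signals, were Pdlim7 (0.125), Hba-x (0.179) and Adap1 (0.214). For Acly they were Pfkfb3 (0.135), Slc37a4 (0.163) and Grk5 (0.176). Their log2 fold changes were 1.35 for Pdlim7, 1.23 for Hba-x, 1.38 for Adap1, 1.15 for Pfkfb3, 1.37 for Slc37a4 and 1.05 for Grk5. Hba-x (adjusted p = 0.186) and Pfkfb3 (0.184) did not pass limma. The likeness rests on the same 6 hearts and includes the difference between the groups.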

How the data were processed

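Total RNA of 3 Glut1-TG and 3 WT left ventricles was labelled and hybridised by the authors. The deposited signal is an intensity per probe set on a linear scale, made with GCOS (version not given in the sources used here) and scaled by the authors to a trimmed mean of 500 per array. Raw scans were not used here. The table holds 45101 probe sets, of which 64 are controls and were left out; the platform annotation gives 34945 of the others 1 symbol, 932 several and 9160 none, and those with 1 were analysed. Values under 1 were set to 1 (48 values) before log2. The lowest 40% of probe sets by mean (under a signal of 115) were left out, and the brightest probe set stood for each of 13178 genes; all 22551 single-symbol probe sets past the filter were also tested.

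The groups were compared by limma 3.58.1 under R 4.3.3 (lmFit, then eBayes with an intensity trend, no covariates), with Benjamini-Hochberg adjustment over all features tested at 0.05. Log2 fold changes carry limma's standard error and 95% interval, means carry SD. Members and lists were chosen with earlier results of these data known. Genes named are all 10 members, up to 4 of each related list that passed limma (at least the 2 with the largest change where fewer passed), 11 fixed partners, and the 3 genes most like Acaca and Acly. Elovl1, Gpd1, Txnip and the single marker genes were chosen after their values were seen. Marker lists of 9 cell types were read. As a check of the code, the fit was run on 10 simulated sets with independent normal noise and planted changes. That check does not test the calls in these hearts. Same-numbered arrays were compared: their deviations correlated at -0.03 to 0.08, beside -0.11 to 0.06 for arrays of different numbers. With 3 arrays per group this cannot decide whether the numbers pair the hearts. RefSeq tables of GRCm38.p6 gave coordinates and sequences. The alternatives were other normalizations, an offset of 50, other filters, no trend, the methods' t-test and thresholds, the mean of a gene's probe sets, the replicate number as a block, and leaving out each array.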

Additional observations from a re-analysis of the deposited data

How the results depend on the processing

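Across 17 alternatives Acaca and Acly kept their direction, with log2 fold changes of 1.03 to 1.59 and 0.92 to 1.41, and both calls stood without any 1 array. Both were lost in eBayes without a trend (adjusted p = 0.0907 and 0.156) and in the methods' t-test after the same adjustment (0.205 and 0.249), and Acaca also as the mean of its probe sets. Thrsp lost its call under 11 alternatives. Members called higher numbered 0 without a trend, 0 in the adjusted t-test, 1 with the mean of probe sets, and 2 to 3 when 1 array was left out; the cause was not tested. Whether the labels' numbers pair the hearts is not known. With the replicate block 2 members were called (Thrsp adjusted p = 0.0691), and 46 genes in place of 79 were called lower. Pgd, Acss1, Klf10 and Cidea also lost their calls with the block. Without a trend, and in the adjusted t-test, Cyb5a (adjusted p = 0.203 and 0.225), Idh2, Acss1, Pgd, Klf10, Cidea, Myl4 and Myl7 all lost theirs.

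Over all genes, 34 were called higher and 79 lower. Centring on the array median moved the median of all genes by -0.10 and gave 14 and 52; centring on the cardiomyocyte markers moved it by 0.20 and gave 69 and 25. The counts were 2 and 2 without a trend, 1 and 0 in the adjusted t-test and 21 and 47 with the mean of probe sets. With the study's limits on fold change and unadjusted p, put on the same t-test with 1 probe set per gene, they were 423 and 349. The study's own lists at these limits were longer, and it names no test for the array. Without 1 array the limma counts were 12 to 32 higher (12 without WT replicate 1, and at most 18 without any array other than Glut1-TG replicate 1) and 30 to 63 lower (30 to 32 without a WT array, 50 without Glut1-TG replicate 3). Of probe sets, 12 to 34 were higher (31 with all arrays) and 22 to 70 lower (70 with all arrays), the lowest without WT replicate 3 in both.

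Some log2 fold changes without a call changed sign. Centred on the array median, Scd1 had -0.0875, Srebf1 -0.088, Gpam -0.0483, Mlxip -0.0944 and Mlycd -0.0227; centred on the cardiomyocyte markers, Elovl6 had 0.0269. As the mean of probe sets, Usf1 had -0.0615, against 1.23 in its brightest probe set. Without 1 array, Scd1 ranged over -0.12 to 0.16, Elovl6 over -0.49 to 0.0105, Srebf1 over -0.04 to 0.0806, Dhcr7 over -0.46 to 0.0659, Gpam over -0.0024 to 0.0935, Insig1 over -0.39 to 0.14, Mlxip over -0.0572 to 0.0711 and Scap over -0.0139 to 0.45. Fasn and Elovl6 had the widest standard errors of the 10 genes (0.40 and 0.33), so their intervals span both directions.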
